A study of Homo sapiens with 6 samples.

Results

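Messenger RNA of 10 genes of the cell death machinery was followed across 6 RNA sequencing libraries of HEK293T cells, an easily transfected line from human embryonic kidney that the series' text writes as HEK293. They are 9 genes of the BCL2 family and TNFRSF10B, the gene of the death receptor DR5. The members were taken by symbol from the deposited count table, and all 10 were found among its 64299 genes and all 10 passed the filter on low counts. The 3 ERbeta libraries come from cells given a plasmid of that name (also written ER-β) and the 3 EV_Ctrl libraries from cells given an empty vector. Both groups share the line, the medium (DMEM with serum, antibiotics and glutamine) and the lipid reagent FuGene 6, with 1 µg of plasmid per well of a 6-well plate. The labels give no time after transfection and leave ER-β unexplained. As background, such a plasmid is known to encode a designed β-sheet protein sent to the endoplasmic reticulum (ER) and not estrogen receptor beta, and its own mRNA was not analysed here. HEK293T cells carry the SV40 large T antigen, which binds p53. Whether the replicates were separate cultures is not said, so the p-values rest on a spread between libraries that may be technical.

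BCL2 proteins set whether the outer membrane of the mitochondria is opened, the step that releases cytochrome c and starts the caspases. BCL2, BCL2L1 (BCL-XL) and MCL1 hold the membrane closed, BAX and BAK1 form the pores, and the BH3-only proteins BBC3 (PUMA), PMAIP1 (NOXA), BCL2L11 (BIM) and BID tip the balance by binding the others. Prolonged ER stress is known to act on this balance at the level of mRNA. The transcription factor CHOP, encoded by DDIT3, is known to raise TNFRSF10B, whose product starts caspase 8 at the cell surface, and BCL2L11, and ATF4 is known to raise PMAIP1. These mRNAs are therefore commonly read when cells carry a misfolding ER protein.

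The libraries held 6833442 to 27101644 counted reads, and the members had 114 to 13193 reads each. HEK293T markers fixed for the check were present (VIM at 827 to 957 CPM, scaled as below), while CD3E, HBB, AFP, COL1A2, KRT5 and KRT14, markers of other cell types, had 0 reads in every library. The libraries differed in how level followed the GC content of the transcript, that is, its share of G and C bases. Per 10 points of GC content, log2 level relative to the mean of the 6 libraries moved by -0.30 in ERbeta 3, -0.075 in ERbeta 1, -0.016 in ERbeta 2, -0.053 in EV_Ctrl 2, 0.20 in EV_Ctrl 3 and 0.24 in EV_Ctrl 1. Because this slope differed within and between the groups, the log2 fold changes of the members are also given with a correction for it.

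The stretch that the 9 BCL2 family genes share is shown because it is what makes them a family. In the longest coding transcript of each gene (GENCODE 29), a leucine codon, 3 further codons, a glycine or alanine codon and an aspartate codon occurred once in frame. It is the core of the BH3 motif, through which the BH3-only proteins bind the others, and is in capitals:
BCL2: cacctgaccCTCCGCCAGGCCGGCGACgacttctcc
BCL2L1: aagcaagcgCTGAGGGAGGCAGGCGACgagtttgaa
MCL1: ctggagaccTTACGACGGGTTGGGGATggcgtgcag
BAX: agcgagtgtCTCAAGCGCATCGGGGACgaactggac
BAK1: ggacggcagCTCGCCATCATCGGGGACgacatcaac
BBC3: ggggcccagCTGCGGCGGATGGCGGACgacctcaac
PMAIP1: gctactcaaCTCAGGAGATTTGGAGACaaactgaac
BCL2L11: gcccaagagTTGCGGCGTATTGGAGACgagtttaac
BID: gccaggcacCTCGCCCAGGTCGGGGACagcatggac
BBC3 was the 1 gene of the 9 with an alanine codon (GCG) in place of the glycine codon. The same pattern also occurred once in TNFRSF10B, which has no BH3 motif, so a match by itself is only a description.

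PMAIP1 is shown whole, because it gave the largest difference of the 10 genes. Its coding sequence has 165 bases, with the BH3 core in capitals:
PMAIP1 coding sequence: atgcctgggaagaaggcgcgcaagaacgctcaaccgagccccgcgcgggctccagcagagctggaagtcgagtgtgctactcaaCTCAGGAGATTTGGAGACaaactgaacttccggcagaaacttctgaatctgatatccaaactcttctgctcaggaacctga
These bases are 53.9% G or C, while the 1553 bases that follow them in the transcript are 31.4% G or C. The whole transcript is at 37.2%, the lowest GC content among the 10 genes. BBC3 is the highest, at 69.7%, and the other 8 lie between 45.1% (MCL1) and 58.9% (BAX).

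**Figure D1:**
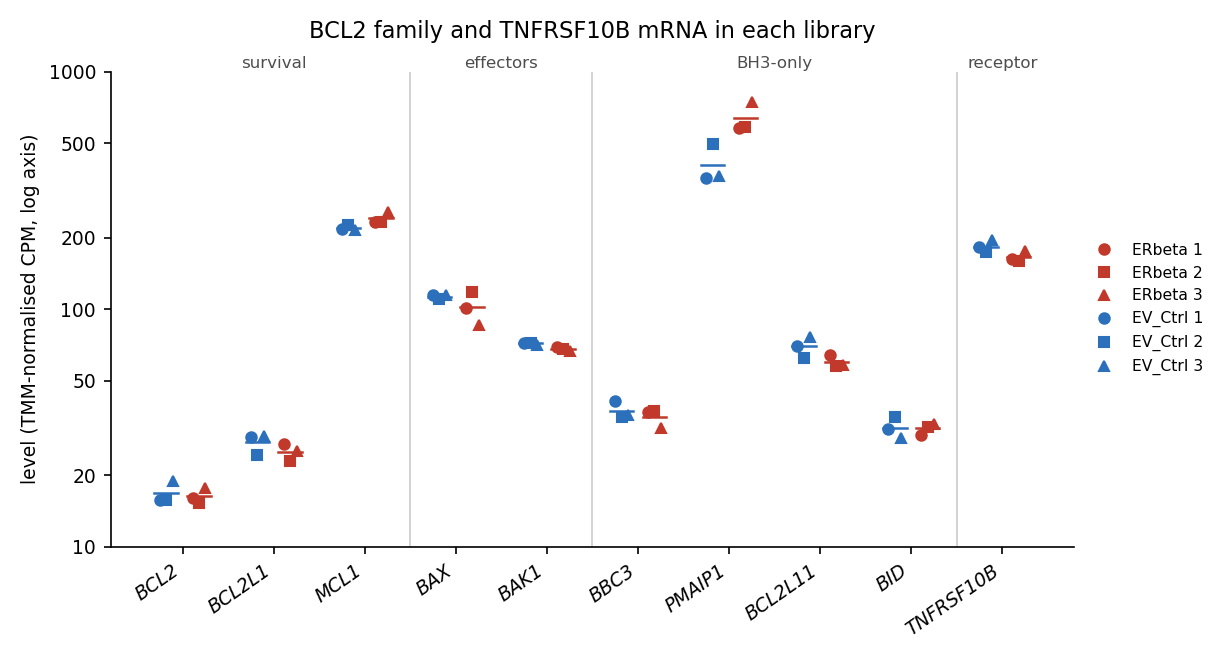
Level of each gene in each library, in CPM after TMM scaling, on a log axis. Red symbols are ERbeta libraries and blue symbols EV_Ctrl libraries, the shape gives the replicate and the short lines are group means of 3 libraries. PMAIP1 stands at 576 to 745 in ERbeta and 356 to 497 in EV_Ctrl, and the groups lie close together for the other genes.

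The comparison asks how the mRNAs of these genes differ between cells with the ERbeta plasmid and cells with the empty vector. PMAIP1 was higher in every ERbeta library, MCL1 was slightly higher, BAK1 slightly lower, and the groups overlapped for the other 7 genes. None of the 10 passed the test. By edgeR (quasi-likelihood fit, p-values adjusted after Benjamini and Hochberg over 16243 genes), 0 of the 10 and 0% of all genes had an adjusted p under 0.05. At an unadjusted p under 0.05 there was 1 of the 10, against 12.4% of all tested genes. DESeq2 and limma-voom also called 0 of the 10, where 0.438% (71) and 0.00616% (1) of all genes were called. The groups did not overlap in the higher direction for 2 of the 10 (10.2% of all genes) and in the lower direction for 1 of the 10 (8.48%). Of the 10, 2 had a positive log2 fold change and the median was -0.08, against 48.3% positive and a median of -0.01 over all tested genes. Levels here are CPM, reads of a gene per 1000000 reads of its library, scaled by the TMM method (trimmed mean of M values), and a log2 fold change is ERbeta over EV_Ctrl with its standard error (SE). Since RNA was taken from all cells of a well, fewer cells with an mRNA and less of it per cell cannot be told apart.

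Among the BH3-only genes PMAIP1, whose product NOXA binds MCL1, carried the largest difference. It was at 576, 586 and 745 CPM in ERbeta 1, 2 and 3 and at 356, 497 and 362 CPM in EV_Ctrl 1, 2 and 3. All 3 ERbeta libraries lay above all 3 controls, with EV_Ctrl 2 nearest to them and ERbeta 3 farthest away. The means were 636 ± 94.9 against 405 ± 79.9 CPM (SD, n = 3 each), a fold of 1.57 with a 95% interval of 1.2 to 2.05 that is not adjusted for the number of genes. The log2 fold change was 0.65 ± 0.17, and edgeR's adjusted p was 0.397. Without EV_Ctrl 2 it was 0.83 and passed, with an adjusted p of 0.00153, in a fit that called 14.3% of all genes, and against EV_Ctrl 2 as the only control it was 0.36. In the authors' deposited table PMAIP1 has a log2 fold change of 0.52, an SE of 0.15 and an adjusted p of 0.034, the only gene of the 10 past 0.05 there. The deposited table calls 3.78% of the genes to which it gives an adjusted p. It also gives a mean above 0 to 8079 genes that had 0 reads in all 6 libraries, so it was not made from these counts alone.

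The difference in PMAIP1 moved with the GC slopes of the libraries. Its lowest levels, in EV_Ctrl 1 and 3, came with the most positive slopes and its highest level, in ERbeta 3, with the most negative. EV_Ctrl 2 and ERbeta 1 and 2, whose slopes were close to each other, were at 497, 576 and 586 CPM. When each library's trend of level on GC content was removed, PMAIP1 was at 494, 527 and 541 CPM in ERbeta 1, 2 and 3 and at 517, 446 and 500 CPM in EV_Ctrl 1, 2 and 3. The groups then overlapped, and the log2 fold change was 0.09 ± 0.10 with a 95% interval of -0.13 to 0.32 and an adjusted p of 0.748. Over all tested genes whose transcripts have 35 to 40% GC, 2165 in number and PMAIP1 among them, the median log2 fold change was 0.45 with quartiles of 0.22 and 0.68. With EV_Ctrl 1 and 3 at the far end of the slopes, a change of low-GC mRNAs that belongs to the plasmid and a trend that belongs to the libraries cannot be told apart in these data.

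**Figure D2:**
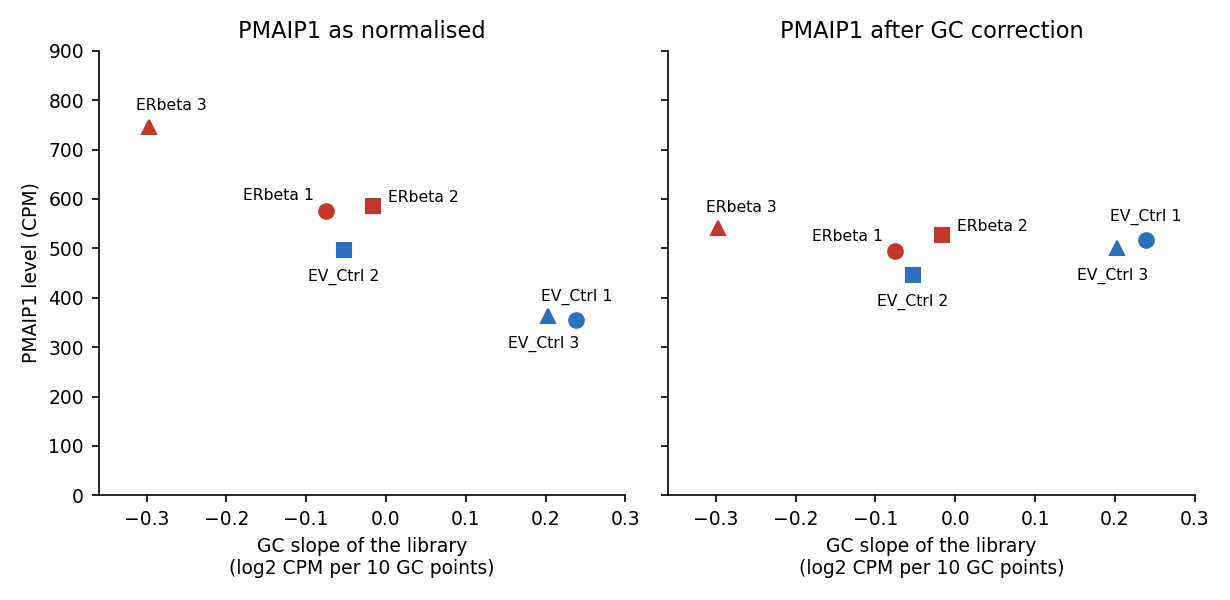
PMAIP1 level in CPM (vertical axis) against the GC slope of each library in log2 CPM per 10 GC points (horizontal axis), as normalised on the left and after GC correction on the right. Each symbol is 1 library, red for ERbeta and blue for EV_Ctrl. On the left the level is 745 in ERbeta 3, at the lowest slope, and 356 in EV_Ctrl 1, at the highest. Between them, at slopes close to each other, EV_Ctrl 2 (497) lies below ERbeta 1 (576) and ERbeta 2 (586). On the right the libraries lie between 446 and 541 with the groups mixed.

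The other BH3-only mRNAs showed no such separation. BCL2L11, the gene of BIM, was at 64.2, 57.6 and 58.2 CPM in ERbeta 1, 2 and 3 and at 70.1, 62.6 and 76.4 CPM in EV_Ctrl 1, 2 and 3. Only ERbeta 1 and EV_Ctrl 2 crossed, and the log2 fold change was -0.21 ± 0.12 with an interval of -0.49 to 0.06 (edgeR, adjusted p 0.449). It was the largest negative value of the 10 and was -0.24 after GC correction (adjusted p 0.475). BBC3, the gene of PUMA, was at 37.0, 37.3 and 31.5 CPM in ERbeta and at 41.2, 35.2 and 35.9 CPM in EV_Ctrl. Its groups overlapped, with a log2 fold change of -0.08 ± 0.13, and its sign turned to 0.26 ± 0.14 after GC correction, where the adjusted p was 0.517 and the groups still overlapped. BID, which is cut by caspase 8 and so links the receptor pathway to the mitochondria, was at 29.6, 32.0 and 32.7 CPM in ERbeta and at 31.3, 34.99 and 28.6 CPM in EV_Ctrl. Its log2 fold change was -0.01 ± 0.12 with an interval of -0.29 to 0.27, and 0.035 after GC correction.

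Of the survival genes, MCL1, a short-lived protein that NOXA binds, was the highest in CPM. It was at 233, 234 and 257 CPM in ERbeta 1, 2 and 3 and at 218, 226.5 and 215 CPM in EV_Ctrl 1, 2 and 3. The groups did not overlap, yet the gap between ERbeta 1 and EV_Ctrl 2 was small, and the log2 fold change was 0.13 ± 0.09 with an interval of -0.08 to 0.35 (edgeR, adjusted p 0.527). After GC correction it was 0.081 with the groups still apart, and with library size as the only scaling it was 0.039 and the groups overlapped. That scaling put the median of all genes at -0.10. BCL2L1 was at 27.1, 22.9 and 25.3 CPM in ERbeta and at 29.1, 24.4 and 29.4 CPM in EV_Ctrl, and the 2 groups overlapped. Its log2 fold change of -0.13 ± 0.13 was -0.011 after GC correction. BCL2 itself was the lowest of the 10, at 16.1, 15.3 and 17.7 CPM in ERbeta and at 15.8, 15.7 and 18.9 CPM in EV_Ctrl. The log2 fold change of BCL2 was -0.04 ± 0.13 with an interval of -0.34 to 0.27, and -0.07 after GC correction. Its value in EV_Ctrl 1 rests on 114 reads, whose 95% Poisson interval runs from 13 to 19 CPM and covers counting error only.

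The pore-forming effectors differed little between groups. BAX was at 101, 118 and 85.4 CPM in ERbeta 1, 2 and 3 and at 114, 110.2 and 114 CPM in EV_Ctrl 1, 2 and 3. The controls were tight while the ERbeta libraries ranged on both sides of them, with a coefficient of variation of 16.1% against 2.1%. The log2 fold change of BAX was -0.15 ± 0.13 and -0.031 after GC correction, which brought ERbeta 3 to 101 CPM. BAK1 was at 69.0, 68.1 and 66.6 CPM in ERbeta and at 72.2, 72.2 and 70.7 CPM in EV_Ctrl. All ERbeta libraries lay below all controls, by a log2 fold change of -0.08 ± 0.09 with an interval of -0.29 to 0.14 (edgeR, adjusted p 0.711). After GC correction the value turned to 0.052 and the groups overlapped.

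TNFRSF10B, the receptor gene named as a CHOP target, was not higher in ERbeta. It was at 163, 159 and 175 CPM in ERbeta 1, 2 and 3 and at 182, 173 and 195 CPM in EV_Ctrl 1, 2 and 3. Only ERbeta 3 reached into the control range, and the log2 fold change was -0.15 ± 0.10 (edgeR, adjusted p 0.516). Its 95% interval of -0.37 to 0.08 puts the fold between 0.773 and 1.06, and after GC correction the interval was -0.29 to 0.12. With library size as the only scaling it was -0.25 and the groups did not overlap. DDIT3, the gene of CHOP, was at 51.5, 48.5 and 43.8 CPM in ERbeta against 28.96, 28.2 and 25.4 CPM in EV_Ctrl. Its log2 fold change of 0.80 ± 0.12 had an adjusted p of 0.235 in edgeR, 0.0488 with GC correction and 8.52e-05 in DESeq2. HSPA5, the ER chaperone BiP, was at 870 to 888 CPM in ERbeta against 501 to 536 CPM in EV_Ctrl. Its log2 fold change of 0.75 had an adjusted p of 0.13 in edgeR, 0.0488 with GC correction and 1.96e-09 in DESeq2. Both genes also passed with no filter on low counts and without EV_Ctrl 2, where 14.3% of all genes were called. With EV_Ctrl 2 as the only control DDIT3 was at 0.77 and HSPA5 at 0.72.

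**Figure D3:**
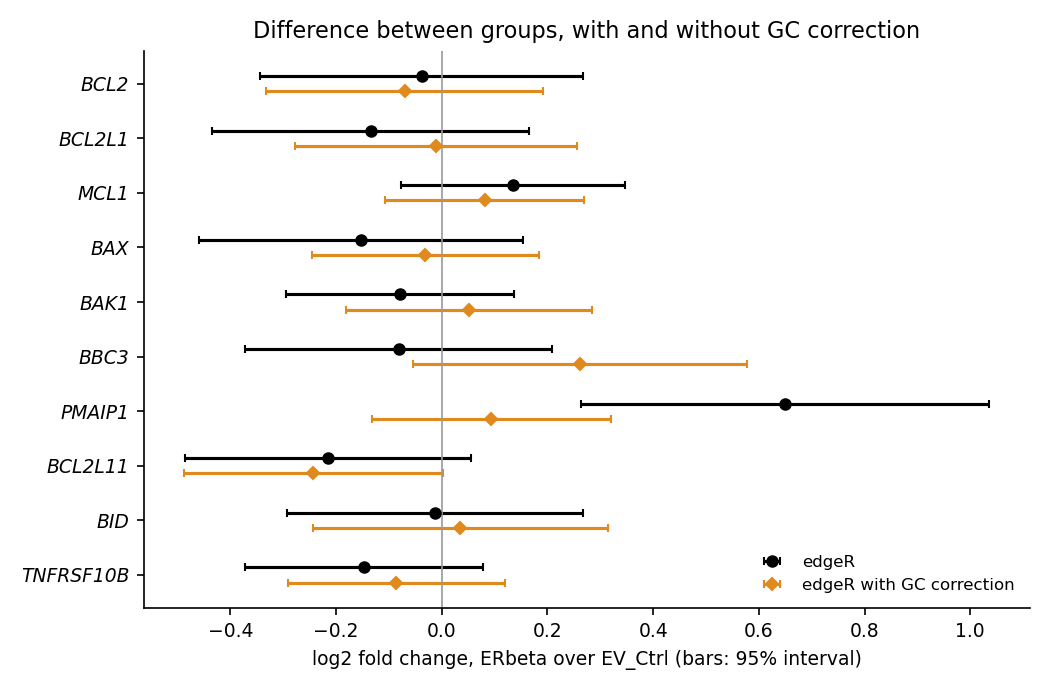
Log2 fold change of ERbeta over EV_Ctrl (horizontal axis) for each gene, by edgeR (black circles) and by edgeR with GC correction (orange diamonds), with 95% intervals that are not adjusted for the number of genes. PMAIP1 moves from 0.65 to 0.09 and BBC3 from -0.08 to 0.26, and MCL1 and TNFRSF10B move by less.

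Across the 10 genes the log2 fold change tended to be lower at higher GC content, with PMAIP1 at the extreme of both (37.2% GC, 0.65). The order was loose, as BCL2L11 was lowest (-0.21) at 45.7% GC and BBC3 was at -0.08 with 69.7% GC. Spearman's rho of GC content with log2 fold change was -0.576 over the 10 and -0.607 over 16091 tested genes with a GC value, given as descriptions because all genes share the same 6 libraries. After GC correction, which removes the trend over all genes by construction, it was 0.055 and 0.032. Before correction 7 of the 10, PMAIP1 among them, lay between the quartiles of the genes of like GC content. BCL2L11 lay below the quartiles of its range (-0.14 and 0.10), MCL1 above the same quartiles and BBC3 above those of its range (-0.36 and -0.12). With the correction, 5 of the 10 had a positive value, the median was 0.012 and 0 passed. The adjusted p-values ran from 0.475 for BCL2L11 to 0.985 for BCL2L1, at an unadjusted p under 0.05 there were 0 of the 10 (10.6% of all genes), and 9 genes or 0.0559% passed in all. MCL1 alone of the 10 then lay higher without overlap between groups (8.53% of all genes) and 0 lay lower (7.71%).

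Levels of different genes were compared per kilobase of the longest transcript (RPKM), averaged over the 6 libraries. PMAIP1 was highest at 267 ± 76.4 RPKM (SD over 6 libraries), followed by BAX at 79.0 ± 8.97 and MCL1 at 58.7 ± 3.86, whose ranges overlapped. TNFRSF10B at 42.1 ± 3.16, BAK1 at 31.6 ± 1.03 and BBC3 at 19.8 ± 1.72 came next, with ranges over the libraries that did not meet. BID at 12.7 ± 0.905, BCL2L11 at 12.4 ± 1.39 and BCL2L1 at 10.1 ± 1.00 overlapped in turn, and BCL2 was lowest at 2.22 ± 0.190. With the length of all annotated exons in place of the longest transcript, MCL1 passed BAX and BID fell behind BCL2L11 and BCL2L1, and the order of the other genes stayed. The opposite-strand RNA ABALON shares 1424 exonic bases with BCL2L1 and MIR4435-2HG shares 727 with BCL2L11. Also on the opposite strand, GGNBP1 shares 91 with BAK1, MIR3190 shares 80 with BBC3 and RHOBTB2 shares 67 with TNFRSF10B. On the same strand MIR3191 shares 76 with BBC3 and ADAMTSL4-AS1 shares 2 with MCL1. The strand setting of the counting is not given in the sources used here, so reads of the opposite-strand pairs may not have been told apart. The counts also do not separate isoforms with opposite actions such as those of BCL2L1.

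Ratios within a library do not depend on the scaling between libraries, and a pair of them was taken, with no test. The ratio of PMAIP1 to MCL1, the BH3-only protein and its partner, was 4.99, 5.06 and 5.84 in ERbeta 1, 2 and 3, against 3.29, 4.43 and 3.40 in the controls 1, 2 and 3, in units of RPKM over RPKM. All ERbeta libraries were above all controls, by 0.52 on the log2 scale, a difference that was 0.014 after GC correction. The ratio of BAX to BCL2 was 34.6, 42.4 and 26.5 in the ERbeta libraries, against 39.8, 38.6 and 33.2 in EV_Ctrl. The ERbeta libraries held both the highest and the lowest ratio, and the group difference was -0.13 on the log2 scale, smaller than the SD of 0.34 among the ERbeta libraries. Its sign turned to 0.035 after GC correction and to 0.046 without ERbeta 3.

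The remaining genes of the pathway were read from lists. Of 12 other BCL2 family genes 8 were tested, and BCL2A1, BCL2L10, BCL2L14 and BCL2L15 were too low. Of the 8, 0 passed in either direction and 7 were negative, with a median log2 fold change of -0.17 that was -0.047 after GC correction. The smallest p-values were those of BCL2L13, a mitochondrial BCL2 relative, at 0.22 ± 0.11, BMF, a BH3-only protein, at -0.20 ± 0.10 and BOK, a BAX-like effector, at -0.33 ± 0.18. In each of these the groups did not overlap, so 1 of the 8 was higher and 2 lower (10.2% and 8.48% of all tested genes). After GC correction the values of BCL2L13, BMF and BOK were 0.24, -0.09 and -0.13.

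On the receptor side 11 of 13 genes were tested and 0 passed in either direction, with a median of -0.012. Without overlap 0 of 11 were higher and 0 lower, against 10.2% and 8.48% of all tested genes. TNFSF10, which encodes the DR5 ligand TRAIL, and FASLG were too low to test. FAS, a death receptor, was at 0.59 ± 0.26 (1.00 and passing without EV_Ctrl 2, 0.21 after GC correction). The fit without EV_Ctrl 2 called 14.3% of all genes, and with EV_Ctrl 2 as the only control FAS was at 0.063. TNFRSF10A, the other death-inducing TRAIL receptor, was at -0.32 ± 0.19 and at -0.25 after GC correction. It was at -0.50 without EV_Ctrl 2 and at -0.13 without EV_Ctrl 3. CASP8, the caspase that DR5 engages, was at 0.15 ± 0.12 with a turned sign of -0.028 after GC correction.

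Downstream, 15 of 15 caspase and apoptosome genes were tested and 0 passed in either direction, with a median of 0.016 (0.050 after GC correction). Without overlap 3 were higher and 0 lower (10.2% and 8.48% of all tested genes). CYCS, cytochrome c, averaged 241 ± 13.2 CPM (SD, n = 3) in ERbeta and 129 ± 36.6 CPM in EV_Ctrl. Its log2 fold change was 0.90 ± 0.19 (edgeR, adjusted p 0.384), and 0.67 after GC correction. It ranged from 232 to 256 CPM in ERbeta and from 99.5 to 170 CPM in EV_Ctrl, and passed with DESeq2, with no filter on low counts and in both fits without EV_Ctrl 2. With EV_Ctrl 2 as the only control CYCS was at 0.51. BIRC2, an inhibitor of apoptosis protein, was at 0.67 ± 0.26 (1.08 and passing without EV_Ctrl 2, 0.13 with EV_Ctrl 2 as the only control). Its groups did not overlap, but only narrowly, with the lowest ERbeta library at 62.9 CPM and the highest EV_Ctrl library at 62.4 CPM. After GC correction BIRC2 was at 0.22. Its longest transcript has 38.0% GC.

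The regulators of the members and the p53 targets showed no call either. Of 11 regulators 7 were positive and the median was 0.17, against 48.3% positive and a median of -0.01 over all tested genes. Without overlap 3 were higher and 2 lower (10.2% and 8.48% of all tested genes), and 0 passed in either direction. Beside DDIT3 they included FBXW7, part of a ubiquitin ligase for MCL1, at 0.58 ± 0.17 and the stress transcription factor ATF3 at 0.51 ± 0.15, which were at 0.55 and 0.51 after GC correction. FBXW7 passed without EV_Ctrl 2, at 0.77, in the fit that called 14.3% of all genes. With EV_Ctrl 2 as the only control FBXW7 was at 0.30. Of 15 p53 targets 10 were positive, the median was 0.074 (0.012 after GC correction) and 0 passed in either direction. Without overlap 1 p53 target was higher and 3 were lower. SESN2, which ATF4 also raises, was the 1 that was higher, at 0.32 ± 0.12 and 0.45 after GC correction. With GC correction and without EV_Ctrl 2, a fit that called 1654 genes, SESN2 passed at 0.45. FBXW7 at 0.74 and CCNG1 at 0.47 passed there too. CCNG1 was at 0.72 ± 0.30 (1.18 and passing without EV_Ctrl 2, 0.10 with EV_Ctrl 2 as the only control, 0.29 after GC correction). FAS belongs to this list too.

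**Figure D4:**
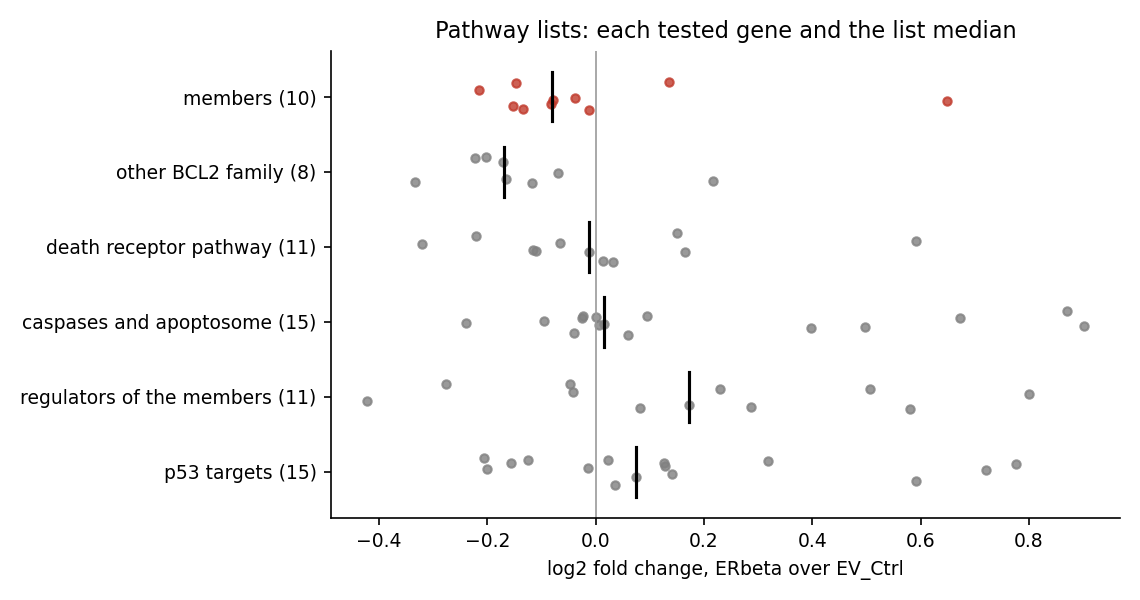
Log2 fold change of ERbeta over EV_Ctrl (horizontal axis) for every tested gene of each list, with the number tested in brackets. Points are genes, red for the 10 genes described here, vertical bars are list medians, and the vertical place of a point within its row has no meaning. PMAIP1 is the point at 0.65 in the top row, and the 8 other tested BCL2 family genes below it have a median of -0.17.

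Genes with a course like that of each member over the 6 libraries were sought among 11211 genes, by the root mean square difference of log2 CPM after centring each gene on its mean. The nearest to PMAIP1 were AP1S2 at 0.038 and TIA1 at 0.040, where PMAIP1 itself varied by 0.38. Their transcripts have 32.8% and 36.6% GC, and their log2 fold changes of 0.62 and 0.60, which passed without EV_Ctrl 2 (0.79 and 0.81), were -0.13 and 0.020 after GC correction. With EV_Ctrl 2 as the only control AP1S2 was at 0.34 and TIA1 at 0.27. The nearest to MCL1 were PNO1 at 0.017 and PRPS2 at 0.021, to BCL2 ACSL1 at 0.021 and CCNYL1 at 0.029, and to BCL2L1 NSUN4 at 0.027 and TMEM231 at 0.031. The nearest to BAX were ATP6V0E2 at 0.015 and TMEM161A at 0.027, and to BAK1 ZNF740 at 0.0078 and CMTR1 at 0.019. The nearest to BBC3 were RIC8A at 0.020 and KIF22 at 0.024, to BCL2L11 NCS1 and ATG14, both at 0.022, to BID CLP1 at 0.023 and NTAN1 at 0.029, and to TNFRSF10B KIF3C at 0.011 and HIC2 at 0.019. Among the members the closest pair was BCL2L1 and BCL2L11, at 0.064, and the farthest was PMAIP1 and BCL2L11, at 0.52.

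The promoter of PMAIP1 is shown because ATF4 and related factors are known to act through cAMP response elements there. The window is the 250 bases before the RefSeq start, chr18:59899746-59899995 on the plus strand of GRCh38.p14, with the short form of that element (TGACG, or CGTCA on the other strand) in capitals:
PMAIP1 promoter: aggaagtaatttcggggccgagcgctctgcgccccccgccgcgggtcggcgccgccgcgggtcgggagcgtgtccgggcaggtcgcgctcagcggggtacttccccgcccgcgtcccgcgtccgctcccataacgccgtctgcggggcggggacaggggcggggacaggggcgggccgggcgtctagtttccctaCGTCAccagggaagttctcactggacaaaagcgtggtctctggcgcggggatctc
The short form lies 55 bases before the start. It is also found in windows of BCL2, BCL2L1 and BAX, and in 21.2% of 35116 such windows of all genes. The full element TGACGTCA (1.65% of windows), the ATF4 and CHOP composite element TGATGNAA (3.14%) and the unfolded protein response element TGACGTGG (0.612%) were searched on both strands, the short form being part of the full element and of the last, and did not occur in the windows of the 8 members that have an entry. A match or its absence in so short a window is a description of these letters only.

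On GRCh38 (GENCODE 29) all 10 genes are protein-coding. BCL2 lies on chromosome 18 (63123346 to 63320128, minus strand) and PMAIP1 on the same chromosome (59899948 to 59904306, plus strand). BCL2L1 lies on chromosome 20 (31664452 to 31723989, minus strand) and MCL1 on chromosome 1 (150574551 to 150579738, minus strand). BAX (48954815 to 48961798, plus strand) and BBC3 (47220822 to 47232766, minus strand) lie on chromosome 19. BAK1 lies on chromosome 6 (33572547 to 33580293, minus strand), BCL2L11 on chromosome 2 (111119378 to 111168447, plus strand), BID on chromosome 22 (17734138 to 17774770, minus strand) and TNFRSF10B on chromosome 8 (23020133 to 23069179, minus strand).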

How the data were processed

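RNA was extracted with a commercial kit and made into TruSeq Stranded mRNA libraries, per the labels' protocols. The first deposited table gives raw counts of reads for each gene, as whole numbers. TopHat2, featureCounts, DESeq2 and the build hg38 are named in the submitters' processing notes, with version, annotation and strand setting not given in the sources used here. A second deposited table holds the authors' DESeq2 comparison, per the file headers with a mean signal, log2 fold changes, their standard errors and Wald statistics (scores) and p-values, and served only for values set beside the ones computed here.

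A symbol was found for 40995 identifiers, and all 10 members had a single row. The filter was filterByExpr of edgeR, with a count of 10 and a total of 15 as minimum, which left 16243 genes with 99.8% of the reads of each library. They were scaled by TMM. The test was glmQLFTest after glmQLFit in edgeR 4.0.16 and R 4.3.3, group being the only term, with limma 3.58.1 and DESeq2 1.42.0 as alternatives. P-values were adjusted over all tested genes, with a threshold of 0.05. Standard errors come from the quasi-likelihood F statistic. For the GC correction the log2 CPM of each library was smoothed against GC content (longest GENCODE 29 transcript, loess with span 0.5) and the curve entered as an offset, and 99.1% of tested genes had a value. The steps were tested on simulated counts.

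The members and lists were chosen with earlier results of these data known. Named genes are all 10 members, up to 3 genes of each other list with the smallest p-values, the 2 genes nearest to each member in course, HSPA5 and DDIT3. A gene that this rule names is not reported here. The short motif in the promoters was added after the sequences were seen. Promoters came from RefSeq (GRCh38.p14), where 8 of the 10 members had an entry.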

Additional observations from a re-analysis of the deposited data

How the results depend on the processing

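A total of 45 named genes were refitted under 17 alternatives. MCL1, PMAIP1, BCL2L11 and TNFRSF10B kept their sign in all of them, PMAIP1 between 0.032 and 0.83 on the log2 scale. Depth limits BCL2 most, and with 3 libraries a group real effects can be missed. The intervals given are not adjusted for the number of genes, so they do not mark what the test could call. DDIT3 (0.53 to 1.08) and HSPA5 (0.55 to 0.94) had intervals above 0 and were not called in the main analysis. With 0 genes called in the main analysis, 51 passed with no filter on low counts, 71 with DESeq2, 1 with limma-voom, 9 with GC correction and 1654 with GC correction without EV_Ctrl 2. Leaving out each library in turn gave 0 to 2324 called genes, 0 to 1 called members and 0 to 9 called genes of the lists, with the highest counts without EV_Ctrl 2. Of the listed genes 2 passed with no filter, 2 with DESeq2, 1 with GC correction and 8 with GC correction without EV_Ctrl 2. Members higher without overlap numbered 1 with library size as the only scaling and 1 with GC correction. Members lower without overlap numbered 2, 0 and 2 with library size only, GC correction and EV_Ctrl 2 as the only control. With each library left out they numbered 1 to 4, the highest without EV_Ctrl 2 (BAK1, BCL2L1, BCL2L11 and TNFRSF10B). With GC correction the shares of all genes were 8.53% higher and 7.71% lower, and in the other settings they were not counted. Groups of fewer libraries separate more easily, so these counts are not a result about the members. These counts without overlap under other settings, and the GC-corrected ratio of PMAIP1 to MCL1 (0.014), were chosen after the data were seen. Leaving out each library gave -0.097 to 0.054 for BCL2, -0.081 to 0.079 for BID, -0.084 to 0.069 for ACSL1, -0.066 to 0.065 for CCNYL1, -0.071 to 0.065 for CLP1 and -0.044 to 0.12 for NTAN1. Signs turned with EV_Ctrl 2 as the only control for BCL2 (0.063), BCL2L1 (0.042), BBC3 (0.008), TNFRSF10A (0.086), ACSL1 (0.060), CCNYL1 (0.098), NSUN4 (0.035), TMEM231 (0.013), KIF22 (0.0065) and NTAN1 (-0.094), and NTAN1 was at -0.058 with library size only. With GC correction they turned for BAK1 (0.052), BBC3 (0.26), BID (0.035), CASP8 (-0.028), PNO1 (-0.12), PRPS2 (-0.016), ZNF740 (0.0072), CMTR1 (0.0069), RIC8A (0.026), KIF22 (0.044), AP1S2 (-0.13) and CLP1 (0.052). GC correction without EV_Ctrl 2 turned BAX (0.0017), BAK1 (0.11), BBC3 (0.25), BID (0.16), CASP8 (-0.060), PNO1 (-0.21), PRPS2 (-0.066), TMEM161A (0.030), ZNF740 (0.046), CMTR1 (0.037), RIC8A (0.027), KIF22 (0.049), AP1S2 (-0.23), TIA1 (-0.031) and CLP1 (0.16). The cause of these changes was not tested.

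Libraries of the 2 groups share replicate numbers, but the labels state no pairing, so the numbers were not taken to pair them. Their deviations from the group means correlated at 0.393, -0.262 and -0.2 for numbers 1, 2 and 3, and at -0.578 to 0.49 for unlike numbers. These deviations were not GC corrected, so the correlations cannot decide whether libraries of like number belong together. With a replicate block 0 genes and 0 members were called, and PMAIP1 was at 0.66 with an adjusted p of 0.433 (edgeR). GC correction with the replicate block turned BAK1 (0.051), BBC3 (0.25), BID (0.046), CASP8 (-0.026), PNO1 (-0.12), PRPS2 (-0.015), TMEM161A (0.0001), ZNF740 (0.0082), CMTR1 (0.0072), RIC8A (0.026), KIF22 (0.046), AP1S2 (-0.12) and CLP1 (0.062).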
